A study of Mus musculus with 12 samples.

Results

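Atg16l1, Tgfbrap1 and Copa are 3 of the 58 mouse gene models in a series that tested how well changes of transcript isoforms are recovered from RNA sequencing. Their members were found by gene name and by the model identifier that each row carries, and repeated rows were dropped. This gave 83 of 925 exon bins, with 25 in Atg16l1, 19 in Tgfbrap1 and 39 in Copa. An exon bin is a stretch between neighbouring exon edges of a gene model, so a bin can be a whole exon, a part of one, or an intron that some transcript keeps. The RNA was from the mouse cell line D1, and each of the 12 samples was built on a computer from sequencing reads, with 5 replicates.

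The background of a sample was a poly(A)-selected, unstranded Illumina TruSeq library made from 1000 ng or from 100 ng of total RNA. ERCC control RNA was mixed into the D1 RNA of the TruSeq libraries. To it were added reads of listed transcripts from 1 of 2 library kits, NuGENv2 from 2 ng of RNA or TruSeq from 100 ng, drawn from a source library of 20M, 40M or 80M reads (M stands for 1e6). The labels also list synthetic transcripts with even coverage that were given to each background. Transcript uc007bxm.1 of Atg16l1 was on the synthetic list of the 1000 ng background, and transcript uc007bxi.1 of the same gene was on that of the 100 ng background. Transcript uc007avh.1 of Tgfbrap1 was synthetic in the 1000 ng background, and uc007dpl.2 of Copa was among the kit reads of the 1000 ng background. The files do not say which bins each listed transcript covers, and there is no deposited column without added reads. Added and endogenous reads of a bin thus cannot be fully told apart at the lowest depth. Every kit and depth has 1 table, with 5 columns for each background.

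Atg16l1 encodes a protein that joins the Atg12 and Atg5 conjugate and places the lipidation of LC3 on the growing autophagosome membrane. Tgfbrap1, also known as Vps3, is a subunit of the CORVET tether that brings early endosomes together under the small GTPase Rab5. Copa encodes the alpha subunit of the COPI coat, which forms the vesicles that carry cargo from the Golgi back to the endoplasmic reticulum. These genes lie on mouse chromosome 1 of build NCBIM37 (mm9), Tgfbrap1 on the minus strand from 43104114 to 43155467, Atg16l1 on the plus strand from 89652445 to 89689003 and Copa on the plus strand from 174012660 to 174052461. In the GENCODE annotation of that build 75 of the 83 bins could be placed, and 57 of these were coding throughout.

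A pair of neighbouring cassette exons of Atg16l1 and a pair of exon ends of Copa carry most of what follows. The Atg16l1 exons are bin E011 (chr1:89671388-89671444, 57 bases, 4 annotated transcripts) and bin E012 (chr1:89671656-89671703, 48 bases, 3 annotated transcripts). Both are coding exons on the plus strand, and both widths divide by 3. They are printed with 12 intron bases on each side, exon in capitals, intron in lower case, and both are flanked by ag and gt. For Copa the last 15 bases of exon bins E005 and E007 (capitals) are printed with the first 15 bases of the bins that follow them, E006 and E008 (lower case). Bin E006 is the whole intron between E005 and E007 (chr1:174021372-174022375), and E008 is the start of the next intron (chr1:174022486-174023691). Each is annotated as exon only in transcripts where it is not coding.
Atg16l1 E011, chr1:89671376-89671456: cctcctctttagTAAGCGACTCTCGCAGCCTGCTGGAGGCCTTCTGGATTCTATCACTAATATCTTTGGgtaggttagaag
Atg16l1 E012, chr1:89671644-89671715: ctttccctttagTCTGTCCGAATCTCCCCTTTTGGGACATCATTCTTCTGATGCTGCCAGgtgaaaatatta
Copa E005 to E006, chr1:174021357-174021386: TAGAACCTGTGTCTGgtaaaccaagaggca
Copa E007 to E008, chr1:174022471-174022500: TTTGGGATATTTCTGgtgagctacccaagt

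The values deposited were reads divided by bin length, and whole reads were recovered from them. Levels are given as FPKM equivalents, reads per 1e3 bases of bin and 1e6 reads of library after scaling the 10 columns of a table to each other. Reads in the 925 bins per column of the 20M NuGENv2 table ranged from 237258 to 558561. The 100 ng columns of the 20M TruSeq table stood apart with 1101798 to 1281559, and results from that table are given last. Fold changes are on the scale log2(FPKM equivalent + 1), 1000 ng minus 100 ng, which understates changes of low bins. Nothing in the labels says that the 5 replicates came from separate cultures, so p-values measure only the spread between these columns. The kit reads gained with depth were identical in all 5 columns of a background, and for Copa they entered the 1000 ng columns alone. The SDs and p-values of Copa thus partly reflect scaling and how the samples were built. The tables share their background reads and are not independent of each other. In these bulk libraries fewer cells and less RNA per cell cannot be told apart.

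At the level of whole genes, Atg16l1 and Copa had like levels per base, and Tgfbrap1 was low. In the 20M NuGENv2 table the Atg16l1 total was 7.99, 19.3, 20.9, 36.9 and 29.8 FPKM equivalents in the 1000 ng columns and 30.3, 24.4, 18.6, 14.2 and 15 in the 100 ng columns. All 100 ng columns lay inside the range of the 1000 ng columns, which held both the lowest and the highest value. The Tgfbrap1 total was 3.09, 3.36, 2.77, 2.95 and 3.03 against 2.88, 2.92, 3.59, 2.76 and 2.98 FPKM equivalents. The Copa total was 22.7, 22.7, 21.1, 22.6 and 21.0 against 19.5, 19.4, 22.6, 21.7 and 19.2 FPKM equivalents. Copa replicates 3 and 4 of the 100 ng background reached into the range of the 1000 ng columns, and the remaining 100 ng columns lay under it.

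No total of these genes passed limma in the 20M NuGENv2 table, where 5.17% of the 58 totals were called. Mean totals were 23.0 ± 11 against 20.5 ± 6.79 for Atg16l1, 3.04 ± 0.218 against 3.03 ± 0.325 for Tgfbrap1 and 22 ± 0.900 against 20.5 ± 1.56 for Copa (FPKM equivalents, SD, n = 5). Log2 fold changes were 0.06 (SE 0.38, limma adjusted p = 0.893), 0.01 (SE 0.06, limma adjusted p = 0.924) and 0.10 (SE 0.06, limma adjusted p = 0.298). The unadjusted limma p-values were 0.878, 0.924 and 0.113, so 0 of 3 were under 0.05 before adjustment too. The replicates of Atg16l1 were the widest apart. Over the 1000 ng columns its log2 total had an SD of 0.80, rank 9 of 58 models from the most spread, against a median of 0.13 over all models, 0.08 for Tgfbrap1 and 0.06 for Copa. Over the 100 ng columns it was 0.44, rank 18, against a median of 0.14, 0.11 for Tgfbrap1 and 0.10 for Copa.

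With deeper kit reads the Copa total rose in the 1000 ng columns while Atg16l1 and Tgfbrap1 kept the same reads. The Copa log2 fold change was 0.13 (limma adjusted p = 0.162) at 40M and 0.18 (limma adjusted p = 0.0834) at 80M NuGENv2 reads, where 17.2% and 24.1% of all totals were called. Without 100 ng replicate 3 the 80M value became 0.23 and passed (limma adjusted p = 0.0282). With TruSeq reads it passed at 40M, with 0.21 (SE 0.07, limma adjusted p = 0.0396), and at 80M, with 0.28 (SE 0.08, limma adjusted p = 0.0148), where 39.7% and 41.4% of all totals were called. At 80M TruSeq reads Copa measured 25.8 ± 1.08 against 21.1 ± 2.32 FPKM equivalents and the columns no longer overlapped. The same kit reads were gained in every 1000 ng column and none in the 100 ng columns from 40M to 80M. The rise of the Copa total with depth was thus built in, and its p-values at deeper reads are no separate evidence. The call of the Copa total was lost with size factors from models without kit reads, with log2 fold changes of 0.16 at 40M (limma adjusted p = 0.289) and 0.22 at 80M (limma adjusted p = 0.121), and with size factors from total reads, with 0.27 (limma adjusted p = 0.68) and 0.41 (limma adjusted p = 0.347). At 40M it was also lost when any 1000 ng column or 100 ng column 1, 2 or 5 was left out (limma adjusted p from 0.0528 to 0.092).

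**Figure D1:**
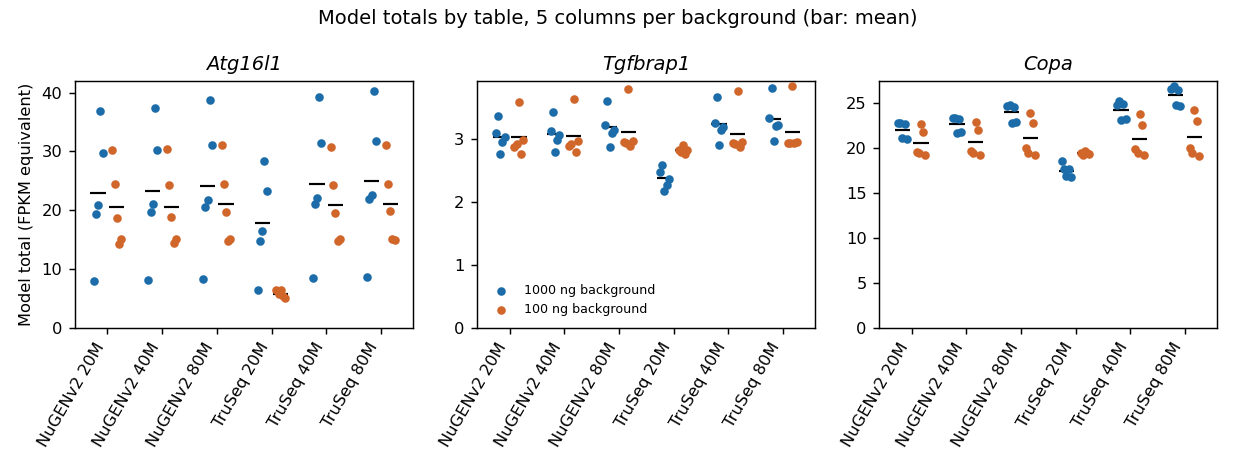
Total of each gene model in FPKM equivalents (y axis, from 0) in the 6 tables (x axis), with 1 point per column, blue for the 1000 ng and orange for the 100 ng background, and a bar at the mean of 5. Atg16l1 spread from 7.99 to 36.9 in the 1000 ng columns of the first table, Tgfbrap1 stayed near 3, Copa moved apart between backgrounds with depth, and the 20M TruSeq table differed from the rest.

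Among single bins, limma called 2 of the 83 with 20M NuGENv2 reads (2.41%), where 1.95% of all 922 bins tested were called. It called 3 at 40M (3.61%, against 4.99% of all bins) and 8 at 80M (9.64%, against 12.3%). With TruSeq reads it called 7 at 40M (8.43%, against 16.9%) and 8 at 80M (9.64%, against 21.4%). With both directions counted, these shares of the 3 genes' bins lay near or under those of all bins. All of these calls were higher in the 1000 ng background, where 1.19%, 2.17%, 5.1%, 6.4% and 7.92% of all bins were called in that direction, in the same order of tables. In that direction alone the shares of the 3 genes' bins lay above those of all bins. The kit reads of Copa were added to that background alone. No bin of the 3 genes was called higher in the 100 ng background in these 5 tables, and 0 had an unadjusted limma p under 0.05 in that direction. The calls were in Atg16l1 bin E012 and in Copa bins E001 to E009. Tgfbrap1 had none, with 1 bin at an unadjusted limma p under 0.05 in each of these tables.

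Outside the 20M TruSeq table, limma called 1 exon of Atg16l1 between the backgrounds. The backgrounds were also given different synthetic Atg16l1 transcripts, uc007bxm.1 at 1000 ng and uc007bxi.1 at 100 ng. Synthetic reads, RNA input and splicing in the cells cannot be told apart here. Bin E012 held 12, 86, 57, 125 and 101 reads in the 1000 ng columns and 2, 4, 3, 3 and 8 in the 100 ng columns of the 20M NuGENv2 table. The counts were the same in the other tables except 20M TruSeq. Every 1000 ng column held more reads than every 100 ng column. On the scaled level the groups met at 1 point, with 9.41, 37.9, 49.4, 95.8 and 96.9 against 2.41, 5.35, 1.78, 2.08 and 10.6 FPKM equivalents. Replicate 1 of the 1000 ng background, the lowest of its group, lay under replicate 5 of the 100 ng background.

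The mean level of Atg16l1 E012 was 57.9 ± 38.0 against 4.45 ± 3.74 FPKM equivalents (SD, n = 5), or 3.29 on the log2 scale (SE 0.65, limma adjusted p = 0.0425). In the other tables except 20M TruSeq it lay between 3.30 and 3.38, with limma adjusted p from 0.0225 at 40M NuGENv2 to 0.00314 at 80M TruSeq reads. The 20M NuGENv2 call was lost when any column other than 1000 ng replicate 1 or 100 ng replicate 5 was left out (limma adjusted p from 0.0527 to 0.106). The 40M NuGENv2 call was lost without 1000 ng replicate 3 or 4 or 100 ng replicate 1, 3 or 4 (limma adjusted p from 0.0509 to 0.0593), while those of the other 3 tables held for each column left out. An exact permutation test of E012, adjusted over all bins, gave 0.161 in the 20M NuGENv2 table and 0.0721 at 80M TruSeq reads. With 5 against 5 columns that test cannot go under 0.00794 before adjustment, so it can hardly pass over all bins where few of them differ. Within the gene, the usage of E012 relative to the other Atg16l1 bins differed by 3.27 on the log2 scale (limma diffSplice adjusted p = 6.31e-10), where 3.9% of all bins were called for usage. It was the only Atg16l1 bin called for usage in any of these 5 tables, and Tgfbrap1 had none. Together with bins of Copa, 2, 4 and 7 of the 83 bins were called for usage with NuGENv2 reads, in order of depth, against 3.9%, 5.53% and 10.8% of all bins. With TruSeq reads at 40M and 80M these were 6 and 8 bins, against 13.9% and 19.1% of all bins.

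**Figure D2:**
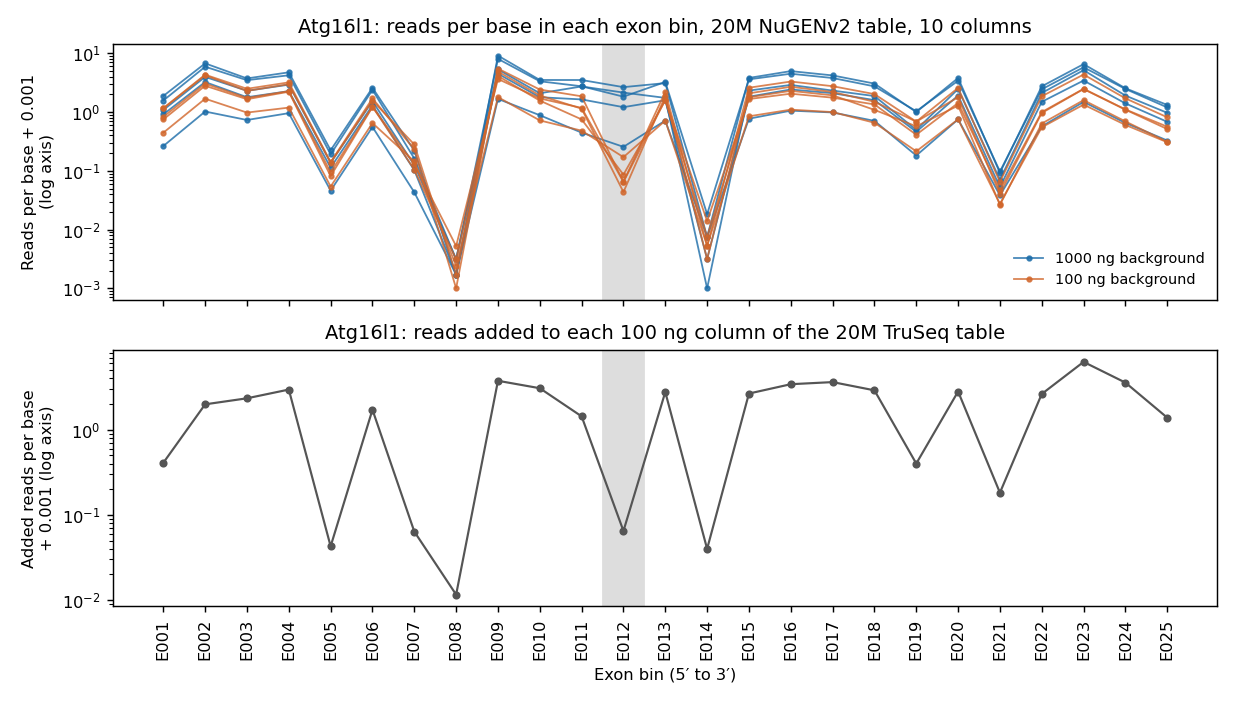
Reads per base of bin (log axis, 0.001 added) along the 25 bins of Atg16l1, above in each of the 10 columns of the 20M NuGENv2 table, below for the reads added to every 100 ng column of the 20M TruSeq table. The grey band marks E012, where the 100 ng columns and the added reads dip further under E010 and E013 than the 1000 ng columns do.

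A ratio taken inside each column does not depend on the scaling. E012 was set against its flanking exons, bins E010 and E013, as the reads per base of E012 in percent of the mean of both. This ratio and the others of its kind were chosen after the values had been seen. In the 1000 ng columns E012 reached 31.9%, 55.4%, 71.8%, 80.1% and 112% of its neighbours. In the 100 ng columns it reached 2.24%, 5.39%, 2.75%, 3.84% and 23.7%. The groups did not overlap, with means of 70.2% ± 29.7 and 7.58% ± 9.09 (SD, n = 5, exact permutation p = 0.00794, two-sided, the smallest that 5 against 5 columns allow, and 0.0212 adjusted over 8 ratios). The value of 23.7% in 100 ng replicate 5 rests on 8 reads.

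The exon just upstream, Atg16l1 E011, was singled out after its values were seen. It reached 55.8%, 83.3%, 97.2%, 106% and 142% of the same neighbours in the 1000 ng columns. The 100 ng columns gave 60.3%, 47.5%, 80.1%, 70.8% and 67.1%. The groups overlapped, with means of 96.9% ± 31.6 and 65.2% ± 12.2 (SD, n = 5, exact permutation p = 0.0635, adjusted 0.0726). In GENCODE, transcripts Atg16l1-002, Atg16l1-003 and Atg16l1-009 hold both exons and Atg16l1-001 holds E011 without E012. Transcripts Atg16l1-007, Atg16l1-011, Atg16l1-201 and Atg16l1-202 join E010 to E013 with neither.

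**Figure D3:**
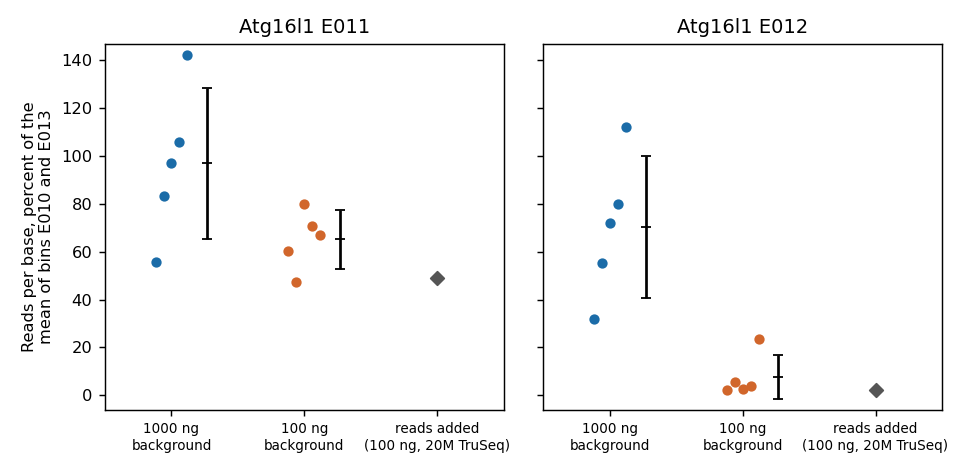
Reads per base of Atg16l1 E011 (left) and E012 (right) in percent of the mean of bins E010 and E013 (y axis), 1 point per column of the 20M NuGENv2 table, with mean and SD of 5 beside the points, and a diamond for the reads added in the 20M TruSeq table. E012 separated the backgrounds (31.9% to 112% against 2.24% to 23.7%) and E011 did not.

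Along the rest of Atg16l1 the bins fell into exons and introns. Bin E009, a coding exon, had the most reads per base, with 197 ± 98.6 against 185 ± 78.6 FPKM equivalents (SD, n = 5, log2 fold change 0.00, SE 0.45, limma adjusted p = 0.998). Bin E008, an intron part annotated as exon in 1 transcript, had the fewest, with 0 to 6 reads per column. The whole intron E005, between exons E004 and E006, held 6.03% ± 0.210 of the reads per base of those exons in the 1000 ng columns and 5.49% ± 0.513 in the 100 ng columns (exact permutation p = 0.0476, adjusted 0.0726, columns overlapping). The intron E019, between E018 and E020, held 27.3% ± 4.14 against 35.9% ± 8.54 (exact permutation p = 0.0635, adjusted 0.0726, columns overlapping). Among the introns of Atg16l1 that could be set between 2 exons, E019 was thus the better covered in both backgrounds.

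The ends of Atg16l1 were also compared within columns, here as whole reads and not per base. Bin E025 has an inferred length of 1206 bases and E001 of 243, so the ratios are no measure of a 3′ excess. The last bin E025, an exon coding in part, had 6.17, 3.79, 3.71, 3.49 and 4.44 times the reads of the first bin E001 in the 1000 ng columns. In the 100 ng columns it had 2.21, 1.85, 3.48, 3.74 and 3.42 times. The means were 4.32 ± 1.09 and 2.94 ± 0.849 (SD, n = 5), the columns overlapped, and the exact permutation p of 0.0317 became 0.0634 after adjustment over 8 ratios.

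Tgfbrap1 showed no called difference between the backgrounds outside the 20M TruSeq table, in its total or in any of its 19 bins. Its bins are numbered along the plus strand, so E001 is the last exon of the transcript. In the 20M NuGENv2 table the exon with the most reads per base, E007 (chr1:43115943-43116000, coding), measured 16.2, 21.5, 18.6, 17.1 and 19 against 15.9, 22, 23.0, 13.7 and 15.3 FPKM equivalents. The 100 ng columns enclosed all of the 1000 ng columns, and the log2 fold change was 0.06 (SE 0.16, limma adjusted p = 0.917). The last exon E001 held the most reads of the gene, 371, 737, 271, 383 and 268 against 223, 206, 544, 379 and 205 (chosen after its values were seen). The bin with the fewest per base, E017, the whole intron between exons E016 and E018 near the start of the gene, had 0 to 4 reads per column. The median log2 fold change over the 19 bins was 0.00 in the 20M NuGENv2 table and 0.04 at 80M TruSeq reads, equal to that over all bins tested, 0.00 and 0.04.

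No bin of Tgfbrap1 or Atg16l1 gained or lost a read between 20M, 40M and 80M with NuGENv2 reads or between 40M and 80M with TruSeq reads, in either background. Copa gained reads in the 1000 ng background alone, and every gain was the same in all 5 columns. Over all 925 bins, 104 gained reads in the 1000 ng background from 20M to 80M with NuGENv2 and 100 with TruSeq.

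The reads that Copa gained all fell in its first 9 bins, E001 to E009, and bins E010 to E039 gained 0. With NuGENv2 reads the gene gained 77 reads per column from 20M to 40M and 127 from 40M to 80M, in 9 bins. With TruSeq reads it gained 133 and 220, in 8 bins, since E003 gained none. The kits differed in where the gains lay. From 20M to 80M, NuGENv2 put 68 of its 204 reads (33.3%) into the intron bin E008 and 29 into the intron bin E006. The 7 exon bins took the rest, from 4 in E001 to 23 in E007. TruSeq put 123 of 353 reads (34.8%) into the exon E007, 75 into E009 and 56 into E005. It put 41 into the intron E006 and 13 into E008.

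Per base the order was different, because the intron bins are long. With NuGENv2, E005 gained the most, 276 reads per 1e3 bases, and E008 gained 56.4. With TruSeq, E007 gained 1130 reads per 1e3 bases, E005 gained 737 and E008 gained 10.8. Each kit's library is 1 source of reads, so this difference between kits has no replicate check.

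**Figure D4:**
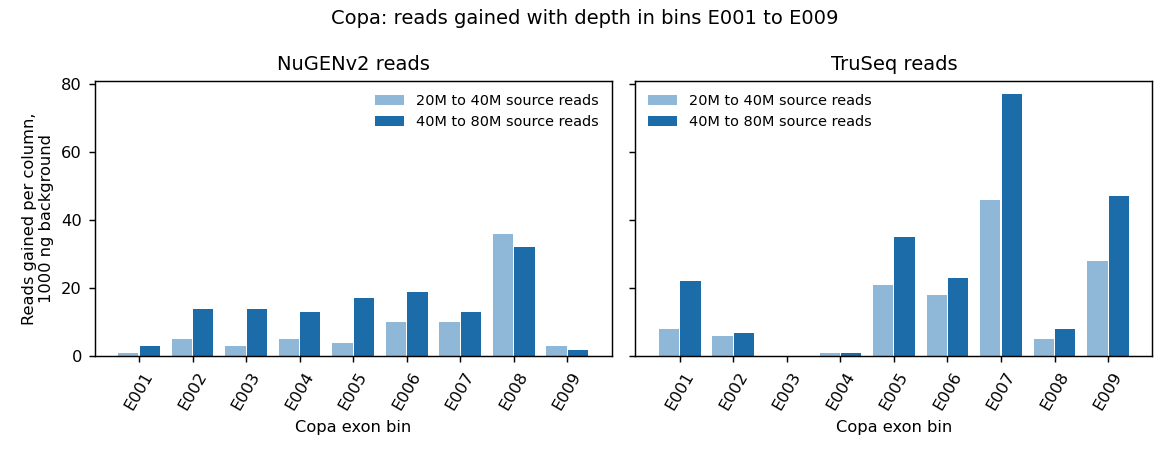
Reads gained per column (y axis, from 0) by Copa bins E001 to E009 in the 1000 ng background, with NuGENv2 reads at left and TruSeq reads at right. Light bars stand for 20M to 40M and dark bars for 40M to 80M source reads. E008 gained the most with NuGENv2 and E007 with TruSeq.

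Called Copa bins followed these gains. The gained reads entered every 1000 ng column and no 100 ng column. The rise of these bins with depth was thus fixed by construction, and the p-values at deeper reads are no separate evidence of a difference between backgrounds. With 20M NuGENv2 reads E008 alone was called in this gene. It held 47, 53, 51, 48 and 38 reads in the 1000 ng columns and 8, 3, 16, 12 and 2 in the 100 ng columns. The lowest 1000 ng column held more than 2 times the reads of the highest 100 ng column. In the 1000 ng columns E008 differed by -23 reads between the kits at 20M (TruSeq minus NuGENv2), on the same background reads. Part of its reads at 20M NuGENv2 were thus kit reads, and the test does not separate them. In FPKM equivalents E008 measured 1.39 ± 0.294 against 0.266 ± 0.127 (SD, n = 5), or 0.91 on the log2 scale (SE 0.11, limma adjusted p = 0.00383). At 40M the intron E006 joined it, with 0.54 (SE 0.12, limma adjusted p = 0.0322), a call lost without 1000 ng replicate 1, 3, 4 or 5 or 100 ng replicate 1, 2 or 3 (limma adjusted p from 0.0512 to 0.0828). At 80M bins E002 to E008 were called, and E008 reached 1.83 (SE 0.14, limma adjusted p = 7.8e-05). These intron bins are low, and with a pseudocount of 0.1 the same log2 fold changes were 2.08 for E008 at 20M, 1.16 for E006 at 40M and 3.34 for E008 at 80M, all still called.

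With TruSeq reads the called bins at 40M were E001 and E005 to E009, and at 80M E002 joined them. The exon E007 held 274, 374, 264, 272 and 241 reads in the 1000 ng columns at 80M TruSeq reads and 60, 55, 139, 138 and 37 in the 100 ng columns. All 1000 ng columns lay above all 100 ng columns. E007 measured 98.1 ± 10.3 against 33.3 ± 8.49 FPKM equivalents (SD, n = 5), or 1.56 on the log2 scale (SE 0.18, limma adjusted p = 0.000142). At 80M NuGENv2 reads it measured 49.1 ± 1.67 against 33.1 ± 8.16, with 0.59 (SE 0.17, limma adjusted p = 0.0475), a call lost without any 1000 ng column or 100 ng replicate 1, 2 or 3 (limma adjusted p from 0.0506 to 0.106) and with size factors from models without kit reads (limma adjusted p = 0.0879).

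The first exon E001 gave 0.45 (SE 0.11, limma adjusted p = 0.0254) at 40M TruSeq reads, a call lost without 1000 ng replicate 1, 3, 4 or 5 or 100 ng replicate 1 or 5 (limma adjusted p from 0.0509 to 0.0634) or with size factors from models without kit reads (limma adjusted p = 0.0711), and 0.75 (SE 0.12, limma adjusted p = 0.00132) at 80M. At 80M TruSeq reads E005 gave 1.24 (SE 0.17, limma adjusted p = 0.000394), E006 gave 1.33 (SE 0.14, limma adjusted p = 9.5e-05), E008 gave 0.77 (SE 0.11, limma adjusted p = 0.000677) and E009 gave 0.95 (SE 0.12, limma adjusted p = 0.000186). Size factors from total reads left E001 at 0.88 without a call at 80M (limma adjusted p = 0.0582), and E005, E006, E008 and E009 kept their calls. The 30 bins from E010 on had a median log2 fold change of 0.16, against 0.77 over E001 to E009 and 0.04 over all bins tested.

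Among the 30 bins E010 to E039 limma called 0 in each table but 20M TruSeq, with 0, 1 and 1 at an unadjusted p under 0.05 with NuGENv2 reads, in order of depth, and 3 and 5 at 40M and 80M TruSeq reads. The exact permutation test, adjusted over all bins, called 1 of them, at 80M TruSeq reads. Exon E033, the bin with the most reads per base, measured 78.0 ± 6.39 against 74.6 ± 5.23 FPKM equivalents in the 20M NuGENv2 table (SD, n = 5, log2 fold change 0.06, SE 0.09, limma adjusted p = 0.806). The intron bin E024, the lowest per base, measured 0.358 ± 0.0669 against 0.340 ± 0.189, with 0.03 (SE 0.11, limma adjusted p = 0.928).

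The front of Copa was compared with its back inside each column, as reads per base of E001 to E009 over those of E010 to E039. This split follows the bins that gained kit reads with depth in the 1000 ng columns alone. A higher ratio in those columns was thus built in with depth, and the p-value below is no independent support. The 100 ng columns gave 0.264, 0.247, 0.262, 0.267 and 0.208 in 5 of the 6 tables. With 20M NuGENv2 reads the 1000 ng columns gave 0.277, 0.293, 0.307, 0.284 and 0.290, and with 80M TruSeq reads 0.433, 0.382, 0.496, 0.438 and 0.498. Groups did not overlap in any of the 6 tables, and the 20M NuGENv2 means were 0.290 ± 0.0112 and 0.250 ± 0.0245 (SD, n = 5, exact permutation p = 0.00794, adjusted 0.0212).

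The introns of Copa were also set against their flanking exons. Intron bin E008 reached 3.34% ± 0.844 of the reads per base of E007 and E009 in the 1000 ng columns with 20M NuGENv2 reads, 5.63% ± 1.47 at 40M and 7.38% ± 1.91 at 80M (SD, n = 5). With TruSeq reads it reached 1.39% ± 0.333, 1.35% ± 0.269 and 1.30% ± 0.2 at the same depths. The 100 ng columns gave 0.699% ± 0.277 in every table but 20M TruSeq, and all 1000 ng columns lay above them (exact permutation p = 0.00794 for each table, with 0.0212 adjusted over 8 ratios at 20M NuGENv2). The intron E006 rose against E005 and E007 from 1.80% ± 0.246 at 20M to 3.44% ± 0.598 at 80M NuGENv2 reads and from 2.10% ± 0.260 to 2.95% ± 0.300 with TruSeq reads, against 1.42% ± 0.519 in the 100 ng columns. At 20M NuGENv2 reads E006 overlapped between the backgrounds (exact permutation p = 0.167). Both introns gained kit reads with depth in the 1000 ng columns alone, so these p-values do not test the backgrounds themselves.

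The 100 ng columns of the 20M TruSeq table held extra reads in nearly every bin, the same number in all 5 columns for all 925 bins. Against the 20M NuGENv2 table they held 864540 more reads in bins, and the inferred total of the fifth column's library was larger by 11.54 times its size before. The genes took very different shares. Copa gained 31126 reads, 11.6 times the 2688 of replicate 5 before, and Tgfbrap1 gained 5438, 10.9 times its 500. Atg16l1 gained 6776, 3.14 times its 2155. The other models together gained 2.14 times the reads of replicate 5.

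Single bins were compared where replicate 5 had held at least 20 reads before. The median ratio of added to earlier reads was 11.93 over 33 Copa bins (8.82 to 16.9), 10.21 over 6 Tgfbrap1 bins (9.16 to 11.2) and 3.11 over 22 Atg16l1 bins (0.436 to 6.86), against 5.64 over 597 bins of the other models. Against replicate 5, Atg16l1 thus lay above the other models in its summed reads and under them in its median bin. The first order rests on replicate 5 alone, which held 2155 Atg16l1 reads, against 4792, 3478, 5976 and 3900 in 100 ng replicates 1 to 4. Set against each of those replicates, the summed reads of Atg16l1 gained less than those of the other models. The bins of Copa and Tgfbrap1 overlapped. Copa and Tgfbrap1 thus gained close to the rise of the library as a whole, and all 22 Atg16l1 bins gained less. Within Atg16l1 the ratio was 0.917 in the first bin E001 and 4.50 in the last bin E025. In the added reads E025 held 16.8 times the reads of E001, above the 1.85 to 6.17 of the 10 columns before.

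**Figure D5:**
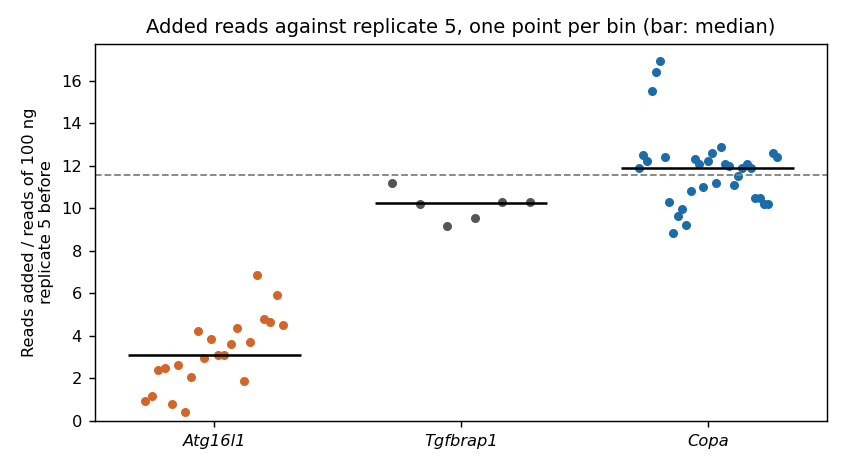
Reads added in the 100 ng columns of the 20M TruSeq table over the reads of 100 ng replicate 5 in the 20M NuGENv2 table (y axis, from 0), with 1 point per bin of at least 20 reads and a bar at the median of each gene. The dashed line is the rise of the inferred library total, 11.54, near which Copa and Tgfbrap1 lie and under which all Atg16l1 points lie.

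The added reads of Atg16l1 resembled the 100 ng columns at the cassette exons. E012 gained 3 reads, 2.19% of its neighbours per base, and E011 gained 80, 49.1% of them. The introns E005 and E019 of Atg16l1 held 1.79% and 14% of their flanking exons in the added reads, under every one of the 10 columns before. For Copa the added reads gave a front-to-back ratio of 0.257 and put E006 and E008 at 1.54% and 0.849% of their neighbours, all inside the range of the 100 ng columns.

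In the comparison of backgrounds at 20M TruSeq reads, 57 of the 83 bins were called (68.7%), where 62.4% of all bins (32.6% higher in the 1000 ng and 29.7% higher in the 100 ng background) and 79.3% of totals were called. Every 100 ng column held the same added reads, for Copa 31126 beside the 2688 of replicate 5 before. The 100 ng SDs were thus narrowed by construction. The p-values and counts of this comparison do not measure a spread between separate replicates. Atg16l1 was higher in the 1000 ng background in 23 of 25 bins, and 0 of its bins had an unadjusted limma p under 0.05 in the other direction. Its total measured 17.9 ± 8.41 against 5.77 ± 0.621 FPKM equivalents (SD, n = 5, log2 fold change 1.34, SE 0.33, limma adjusted p = 0.00431). Tgfbrap1 was higher in the 100 ng background in 10 of its bins and lower in 1, with a total of 2.38 ± 0.164 against 2.82 ± 0.0528 (log2 fold change -0.18, limma adjusted p = 0.00127). Copa was higher in the 100 ng background in 19 bins, 17 of them among E010 to E039, and lower in 4, with a total of 17.4 ± 0.734 against 19.4 ± 0.17 (log2 fold change -0.14, limma adjusted p = 0.00163). E012 of Atg16l1 gave 4.40 (SE 0.54, limma adjusted p = 0.000247). For usage, 17 of the 83 bins were called, against 18.1% of all bins.

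Part of these directions changed with the scaling. Size factors from total reads moved the median log2 fold change of all bins from -0.02 to -0.73, and those from models without kit reads moved it to -0.46. The Atg16l1 total then gave 0.38 (limma adjusted p = 0.236) and 0.74 (limma adjusted p = 0.024), and it gave -1.10 (limma adjusted p = 0.011) on the values as deposited without the fifth 100 ng column. In that last setting the median of all bins was -2.55. The 4 Copa bins higher in the 1000 ng background, E005 to E008, gave -0.73, -0.10, -0.71 and -0.04 with size factors from total reads. E012 of Atg16l1 kept its direction and its call with both, at 3.44 and 3.77.

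The models most like each gene over the 10 columns of the 20M NuGENv2 table were found by the Pearson correlation of log2 totals, as a description over columns that share their scaling. For Atg16l1 these were Sin3b (r = 0.80) and Dnaja1 (r = 0.52), for Tgfbrap1 Fxyd5 (r = 0.71) and Cyth4 (r = 0.70), and for Copa Il18rap (r = 0.89) and Fxyd5 (r = 0.81). Among the genes themselves r was 0.50 between Tgfbrap1 and Copa, -0.14 between Atg16l1 and Tgfbrap1 and -0.24 between Atg16l1 and Copa.

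A list of 45 other genes covered autophagy, the COPI coat with its ARF switch and endosomal tethers with their Rab switches, and it also held Rnf130. The tables held 3 of them. Cyth4, an exchange factor for ARF GTPases, had 0 of 19 bins called at 20M NuGENv2 reads, with 59.3 against 60.6 FPKM equivalents in total (log2 fold change -0.03, limma adjusted p = 0.804). At 80M TruSeq reads it had 1 called bin with more reads per base at 1000 ng and 4 with more at 100 ng, and its total was 78.4 against 89.2 FPKM equivalents (log2 fold change -0.18, limma adjusted p = 0.00693). The Cyth4 total was thus higher there than at 20M NuGENv2 reads in both backgrounds, and added kit reads were not separated from it. Of all bins 21.4% and of all totals 41.4% were called at 80M TruSeq reads, also the background for Evi5l and Rnf130. Evi5l, a relative of the Rab GTPase regulator Evi5, measured 9.29 against 15.7 in the first of these tables (log2 fold change -0.70, limma adjusted p = 0.0737) and 10.1 against 16.1 in the second (-0.63, limma adjusted p = 0.0283, 6 of 13 bins higher in the 100 ng background). Rnf130, an E3 ubiquitin ligase, measured 43.6 against 55.4 (limma adjusted p = 0.804) and 47.3 against 56.5 (limma adjusted p = 0.788). Of 18 marker genes of dendritic and other cells the tables held 2, Sirpa and Mgl2, so the labelled line could not be checked against its markers.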

How the data were processed

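Each kit and depth had 1 deposited table of 1744 rows, of which 818 were repeats. The submitters' processing notes name STAR, Cuffdiff and mm9. The rule for counting reads in bins was not given in the sources. The authors' values are a signal: whole reads over bin length, judged by the values themselves. The fifth 100 ng column was divided further by a number read as its library total in 1e6 reads (16.02 to 16.16, and 200.9 in the 20M TruSeq table). Lengths and totals were inferred from the values, which gave whole reads for 100% of values within 0.001 reads. 1 bin with values that were not finite was left out.

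Median-of-ratios size factors gave FPKM equivalents. Bins of models without a listed transcript needed a mean of at least 1. limma 3.58.1 in R 4.3.3 fitted log2(FPKM equivalent + 1), 5 columns against 5 in each table, two-sided, Benjamini-Hochberg adjusted over all bins, totals or usage tests, threshold 0.05. The script was tested on simulated data. Bins were placed by matching inferred lengths in order to GENCODE vM1 exon parts (width is length plus 1), and 8 could not be placed. Libraries were unstranded, so overlapping antisense reads cannot be told apart. Intervals of read counts were not computed, and low bins are less precise. Named bins were those called in any table but 20M TruSeq (at most 6 per gene, by p) and the highest and lowest per base. Copa E002, E003 and E004 and Atg16l1 E001, E011 and E025 were singled out after their values were seen. The members and gene lists were chosen with earlier results of these data known.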

Additional observations from a re-analysis of the deposited data

Results flagged for a closer look

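Of 120 groups of 5 columns checked for 1 value far from the rest, 8 were past the limit of 0.71 for the gap over the range, which chance gives in about 1 in 20 groups. The tables share background columns, so these are 3 cases. Tgfbrap1 in 100 ng replicate 3 measured 3.59, 3.63 and 3.79 FPKM equivalents with 20M, 40M and 80M NuGENv2 reads and 3.76 and 3.84 with 40M and 80M TruSeq reads, above the other four columns (2.76 to 2.98 in the first table). Copa E005 in 1000 ng replicate 5 measured 43.3 and 46.3 FPKM equivalents with 20M and 40M NuGENv2 reads, under the other four. Copa E008 in 1000 ng replicate 2 measured 2.23 FPKM equivalents with 80M NuGENv2 reads, under the other four (3.63 to 4.17). That column had the largest size factor of its background, 1.94 at 20M, and held the same added Copa reads as the others.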

How the results depend on the processing

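Bins called among the 83 numbered 2, 3, 8, 57, 7 and 8, in the order NuGENv2 20M, 40M, 80M, then TruSeq 20M, 40M, 80M. On the values as deposited they numbered 1, 2, 2, 0, 1 and 1 in that order of tables (for the 0, limma gave 2 at an unadjusted p under 0.05). Of all 923 bins, 4, 7, 7, 0, 4 and 4 were then called higher in the 1000 ng background. In the main fit these were 11, 20, 47, 301, 59 and 73 of 922. Higher in the 100 ng background were 0, 1, 1, 2, 0 and 0, against 7, 26, 66, 274, 97 and 124. Calls thus fell over all bins too. Without the fifth 100 ng column, bins called among the 83 numbered 3 at 80M NuGENv2 and 3 and 5 at 40M and 80M TruSeq. Of all bins, 32, 34 and 60 were then higher in the 1000 ng and 22, 21 and 58 higher in the 100 ng background. Size factors from total reads gave 3 at 80M NuGENv2 and 2 at 40M TruSeq. Of all bins, 24 and 38 were then higher in the 1000 ng and 17 and 33 higher in the 100 ng background. For exact permutation, columns left out and the replicate block, the share over all bins is not given. Exact permutation per bin gave 0, 0, 0 and 0 with NuGENv2 and at 40M TruSeq (10, 12, 13 and 17 at an unadjusted p under 0.05) and 9 at 80M TruSeq. Its p cannot go under 0.00794 before adjustment. A bin can pass over 922 bins only where many bins reach that floor, so the counts of 0 say little. Leaving out 1 column gave 1 to 2, 1 to 3 and 5 to 7 with NuGENv2 and 44 to 60, 6 to 8 and 7 to 12 with TruSeq. At 20M NuGENv2 the count was 1 without any column but 1000 ng replicate 1 and 100 ng replicate 5, at 40M it was 1 without 1000 ng replicate 3 or 4 or 100 ng replicate 1 or 3, and at 80M it was 5 without 1000 ng replicate 3. The replicate block gave 0, 1 and 4 with NuGENv2 (4 at an unadjusted limma p under 0.05 for the 0) and 42, 6 and 7 with TruSeq, but same-numbered columns did not move together (correlations -0.03, -0.08, -0.38, -0.11 and 0.09).

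In the 20M TruSeq table log2 fold changes of Copa E005, E006, E007, E008 and E009 turned to -0.68, -0.50, -0.66, -0.49 and -0.96 on the values as deposited. They turned to -2.22, -1.74, -2.20, -1.62 and -2.50 without the fifth 100 ng column and to -0.73, -0.10, -0.71, -0.04 and -1 with size factors from total reads. The median log2 fold change of all bins moved too, from -0.02 to -1.06 on the values as deposited. It was -2.55 without the fifth 100 ng column and -0.73 with size factors from total reads. A shift of all bins was thus part of these changes and was not particular to Copa. With size factors from models without kit reads E005, E007 and E009 turned to -0.34, -0.31 and -0.61. The Atg16l1 total turned to -1.10 on deposited values without the fifth column. Totals and bins near 0 changed sign with a column left out, none of them called, with ranges for the Atg16l1 total of -0.14 to 0.38, -0.13 to 0.39, -0.11 to 0.41, -0.09 to 0.44 and -0.07 to 0.46 in the tables other than 20M TruSeq. The Tgfbrap1 total ranged from -0.02 to 0.05, -0.02 to 0.06 and 0 to 0.09 with NuGENv2, and Copa E001 from -0.06 to 0.07 and -0.04 to 0.1 at 20M and 40M. The cause was not tested. A pseudocount of 0.1 raised the log2 fold changes of the low intron bins, from 0.77 to 1.83 for Copa E008 and from 1.33 to 2.31 for E006 at 80M TruSeq, with both calls kept.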
